A study of Mus musculus with 6 samples.

Results

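The genes described here carry the symbols of the mitochondrial ribosomal proteins and were followed in muscle cells from Sfpq knockout and control mice. Sfpq is an RNA-binding protein. They were every gene whose symbol starts with Mrpl (large subunit) or Mrps (small subunit) followed by a number and whose level was at least 1 TPM (a level scaled to transcript length and library total) in at least 3 libraries. The rule found 76 genes, 47 Mrpl and 29 Mrps, among the 12461 genes that passed the same filter. Each of the 76 Mrpl and Mrps genes in the files passed, and none lay near the threshold: the lowest value in any library was 4.56 TPM, for Mrps25. Subunits are counted by symbol. Structures place Mrps18a and Mrps30 in the large subunit, and Mrps36 is not seen in the ribosome. The RefSeq gene table lists 78 such coding genes, and Mrpl21 and Mrpl58 were not analysed here.

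The cells were primary myoblasts, the precursors of muscle fibres, isolated from the skeletal muscles of male mice aged 1 month and kept for 4 days in 2% horse serum, in which they differentiate. One group of 3 libraries came from SfpqSM-KO mice, titled SFPQ_KO, and the other group of 3 from control mice, titled Cont. All 6 cultures had first been expanded with basic fibroblast growth factor at 2.5 ng/mL in 20% fetal bovine serum, and polyA RNA was sequenced. For the strain, the promoter that drives the deletion and the alleles of the controls, nothing was given in the sources used here. The series text counts 3 mice per genotype but the labels tie no library to 1 mouse, so a p-value covers the spread between libraries alone, which may be technical.

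The mitochondrial ribosome translates the few mRNAs of the mitochondrial genome, which encode core subunits of the respiratory chain and of ATP synthase. Its rRNAs come from the mitochondrial genome, but its proteins are encoded in the nucleus, made in the cytosol and imported. Some of them descend from bacterial ribosomal proteins and others are found in mitochondrial ribosomes alone. The small subunit reads the mRNA and the large subunit joins the amino acids, so proteins of both are needed together. Muscle has a high demand for respiration, and inherited defects of several of these proteins cause mitochondrial disease.

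The label of the knockout held in its target gene: Sfpq stood at 18.3, 19.3 and 14.1 TPM in SFPQ_KO replicates 1 to 3 and at 48.6, 60.5 and 49.9 TPM in Cont replicates 1 to 3 (limma adjusted p = 0.0531). Each library had between 12216 and 12484 genes at 1 TPM or more, and because TPM values carry no read depth, that of each library is unknown. The 8 differentiated muscle markers, led by Acta1 and Mylpf, summed to between 75889 and 80750 TPM in SFPQ_KO and between 63735 and 69149 TPM in Cont, without overlap. They did not all lie on 1 side: 5 of the 8 were higher on average and 3 lower, with log2 differences of 0.33 for Acta1 and 0.31 for Mylpf but −0.25 for Tnnt3 and −0.22 for Ckm. Endothelial markers summed to at most 0.451 TPM in a library. The 6 macrophage and leukocyte markers summed to between 1.41 and 2.44 TPM in a library, and none passed the filter. Cd68 was the highest of them, averaging 0.862 TPM over all libraries, while Ptprc and Adgre1 were listed at 0 in all 6 libraries. The 6 cycling cell markers summed to between 6.62 and 18.7 TPM in SFPQ_KO and between 19.4 and 25.03 TPM in Cont, with 0 of 6 listed at 0 and 6 of 6 lower on average. The 6 fibroblast markers summed to between 155 and 217 TPM in SFPQ_KO and between 197 and 294 TPM in Cont. Of these, Lum was listed at 0 in 5 libraries, and Pdgfra and Dcn, also defining markers, did not exceed 4.39 TPM. The highest of the 6 averaged 183 TPM over all libraries. The 3 that passed the filter were all lower on average, with log2 differences from −1.50 to −0.13. The part of these other cell states in the values below was not tested. In bulk RNA, fewer cells of a type and less RNA per cell cannot be told apart.

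The promoters of the 4 members with the smallest p-values between the genotypes are shown first. The windows run from 250 bases before to 50 bases after the annotated start, 5′ to 3′, from RefSeq on GRCm38.p6. Capitals mark matches on either strand to 4 motifs. The ETS core bound by GABPA, also called NRF2, was searched as CCGGAAG. NRF1, an activator of nuclear genes for mitochondria, was searched by its palindromic consensus, whose match is the run of capitals in Mrps9. The YY1 motif was searched as AAGATGGCG and the TATA box as TATAAA. The windows are those of Mrps36 (chr13:100744610-100744909, minus strand), Mrpl33 (chr5:31613701-31614000, plus strand), Mrps9 (chr1:42850983-42851282, plus strand) and Mrpl3 (chr9:105053018-105053317, plus strand).
Mrps36: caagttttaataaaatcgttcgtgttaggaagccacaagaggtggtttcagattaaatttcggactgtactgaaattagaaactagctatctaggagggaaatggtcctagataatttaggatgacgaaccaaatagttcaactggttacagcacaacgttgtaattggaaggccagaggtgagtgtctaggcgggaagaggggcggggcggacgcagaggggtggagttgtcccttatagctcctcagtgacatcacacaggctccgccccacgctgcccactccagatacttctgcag
Mrpl33: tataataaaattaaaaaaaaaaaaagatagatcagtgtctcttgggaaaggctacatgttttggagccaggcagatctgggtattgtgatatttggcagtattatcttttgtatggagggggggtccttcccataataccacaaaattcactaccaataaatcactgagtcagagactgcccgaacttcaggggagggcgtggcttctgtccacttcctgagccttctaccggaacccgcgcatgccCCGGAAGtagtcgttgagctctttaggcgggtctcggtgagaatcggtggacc
Mrps9: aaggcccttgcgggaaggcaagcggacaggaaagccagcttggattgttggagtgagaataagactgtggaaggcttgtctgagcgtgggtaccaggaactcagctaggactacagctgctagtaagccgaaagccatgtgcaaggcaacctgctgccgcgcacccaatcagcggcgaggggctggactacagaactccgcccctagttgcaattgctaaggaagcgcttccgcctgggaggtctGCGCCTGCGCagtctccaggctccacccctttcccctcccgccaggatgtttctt
Mrpl3: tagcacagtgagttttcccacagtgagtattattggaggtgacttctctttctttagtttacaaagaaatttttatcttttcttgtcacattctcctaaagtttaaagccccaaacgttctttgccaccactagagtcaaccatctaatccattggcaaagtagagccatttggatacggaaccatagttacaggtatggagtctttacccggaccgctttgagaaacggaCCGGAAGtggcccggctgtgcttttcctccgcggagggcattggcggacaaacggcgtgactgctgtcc

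Mrpl33 and Mrpl3 held the GABPA letters, Mrps9 held the NRF1 letters, and the Mrps36 window held none of the 4 motifs. Of the 76 members, 67 had a promoter window. Among these 67, the GABPA letters were found in 24 (35.8%), against 20.5% of the 9543 tested genes with a window and 9.93% of all 27025 genes with a window. The NRF1 letters were in 13 members (19.4%), against 11.9% and 5.19%, and the YY1 letters in 8 (11.9%), against 3.71% and 1.64%. The TATA letters were in 5 (7.46%), against 8.99% and 15.7%. The 24 members with the GABPA letters had a median log2 difference between genotypes of −0.07 and the 43 without them also −0.07. The 13 with the NRF1 letters had a median of −0.11 and the 54 without −0.07. The 8 with the YY1 letters had a median of −0.13 and the 59 without −0.07. A match describes the letters in the window and shows no binding.

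As a family, the mitochondrial ribosomal protein genes stood close to their control level in the knockout libraries. No member passed the genome-wide test: limma on log2(TPM + 1) with Benjamini-Hochberg adjustment over 12461 genes called 0 of 76, and over all genes it also called 0 lower and 0 higher (0.0% in each direction). The smallest adjusted p under these symbols was 0.243, for Mrps36, and among proteins of the ribosome itself 0.251, for Mrpl33. The median log2 difference, SFPQ_KO minus Cont, was −0.06 over the 47 Mrpl genes and −0.09 over the 29 Mrps genes. The median over all genes tested was −0.07, so the family lay near that of the whole transcriptome. After median-of-ratios scaling, which brought the median of all genes to 0.00, the Mrpl median was 0.01, on the other side of 0, and the Mrps median −0.02.

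The members also stayed within a narrow range. The log2 difference was smaller than 0.2 in size for 62 of 76 (81.6%), against 64.4% of all genes tested, and 0 of 76 were beyond 0.5, against 7.70%. The replicates of these genes were close as well: the median SD between libraries of 1 genotype was 0.11 on the log2 scale, against 0.15 for the 9172 tested genes at or above the mean level of the lowest member. Neither comparison was matched for level: the median level was 68.9 TPM over the members and 17.5 TPM over all genes tested. A narrow range was not particular to the family. Of 82 cytosolic ribosomal protein genes, 74 (90.2%) were smaller than 0.2 in size and 2 were beyond 0.5. The 95% limma interval of the difference lay within 0.5 log2 units on either side of 0 for 67 of 76 members and within 1 for all 76. Values lay below control for 58 members and above for 18, where 64.5% of all genes tested had lower values. After median-of-ratios scaling the same count was 36 below and 40 above, and after quantile normalization 47 and 29.

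**Figure D1:**
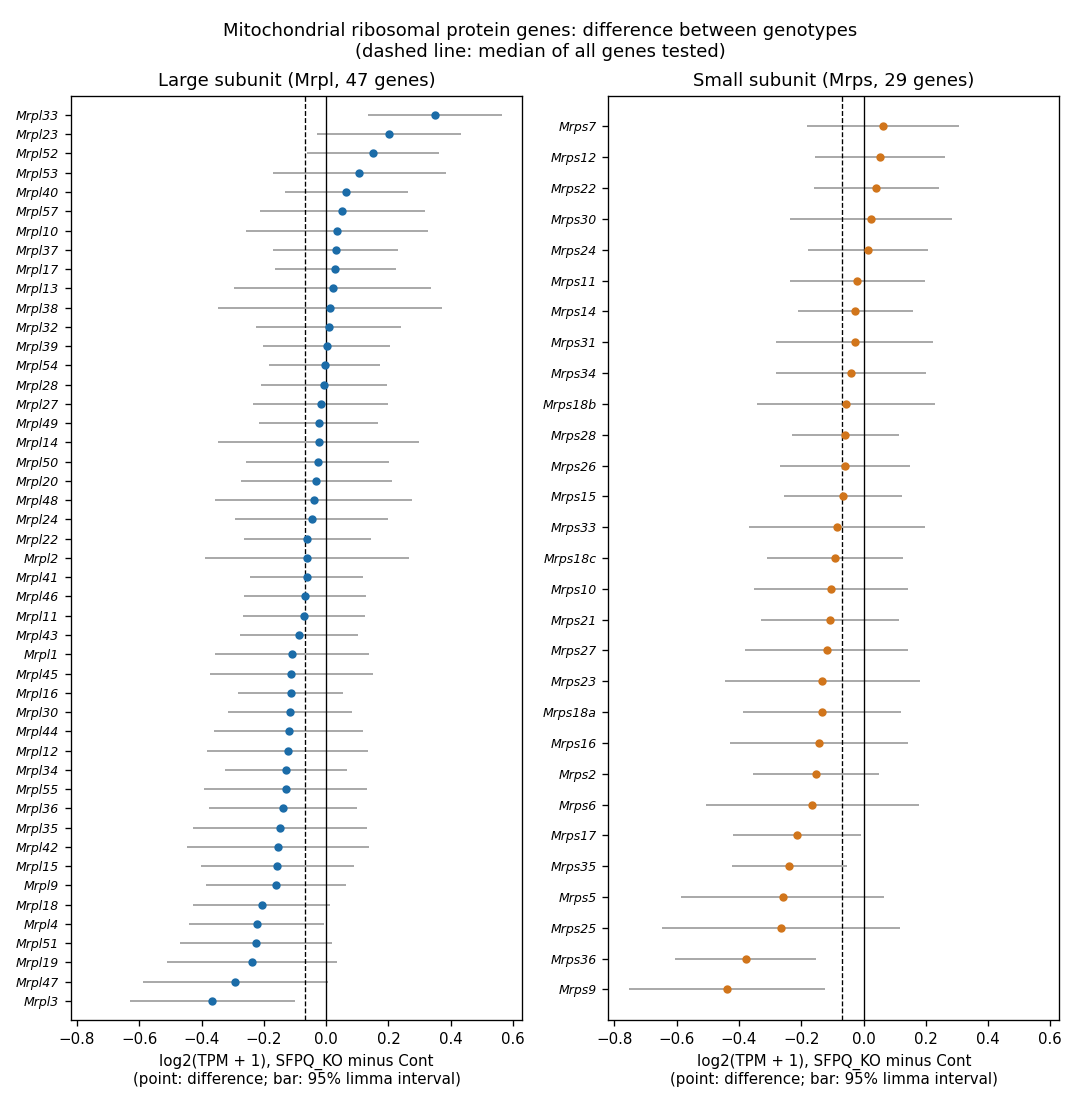
Log2 difference, SFPQ_KO minus Cont, on the log2(TPM + 1) scale for each of the 47 Mrpl (left) and 29 Mrps (right) genes, with 95% limma intervals as bars. Points run from −0.44 (Mrps9) to 0.35 (Mrpl33), and most intervals cross 0 and the dashed line, the median of all genes tested at −0.07.

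In 14 members each knockout library lay below each control library (18.4%), and in 3 each lay above (3.95%). Over all genes tested these shares were 15.3% and 4.27%, so the members' counts were near the background. At an unadjusted limma p under 0.05 there were 6 lower members and 1 higher (7.89% and 1.32%), against 9.62% and 2.68% of all genes tested. After median-of-ratios scaling that split was 3 lower and 3 higher among members, and 710 lower and 719 higher among all genes in place of 1199 and 334.

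In the small subunit, the member with the smallest p was Mrps36 (chromosome 13, 100735940 to 100744659 in GRCm38, 8.72 kb). Its TPM was 44.1, 48.3 and 53.05 in SFPQ_KO replicates 1 to 3 and 61.4, 61.3 and 66.8 in Cont replicates 1 to 3. The groups did not overlap, the knockout mean was 23.3% below control, and the log2 difference was −0.38 (SE 0.10, limma adjusted p = 0.243). Despite its symbol, Mrps36 is now known as a subunit that anchors the dihydrolipoamide dehydrogenase to the 2-oxoglutarate dehydrogenase complex of the tricarboxylic acid cycle, and its count in the small subunit follows the symbol alone. Other genes of that complex were looked up after this value was seen, and 3 of the 4 listed were analysed here. Ogdh, the first enzyme of the complex, had 138 ± 8.54 TPM in SFPQ_KO against 171 ± 15.6 TPM in Cont (SD, n = 3), or −0.30 as a log2 difference. Dld, the dihydrolipoamide dehydrogenase, had a difference of −0.32 and Dlst, the succinyltransferase core, −0.20, and for all 3 genes each knockout library lay below each control library, as for 15.3% of all genes tested. None of the 3 passed over all genes (limma adjusted p from 0.306 to 0.404).

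Mrps9 had the lowest log2 difference of the family. It is the homolog of a bacterial protein of the small subunit head whose tail reaches the peptidyl tRNA (chromosome 1, 42851233 to 42905683, 54.5 kb). Its TPM was 32.2, 43.6 and 35.4 in SFPQ_KO replicates 1 to 3 and 53.03, 45.3 and 52.7 in Cont replicates 1 to 3. Knockout replicate 2 and control replicate 2 nearly met, so the groups were barely separate. The log2 difference was −0.44 (SE 0.13, limma adjusted p = 0.301).

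Mrps35, a protein found in mitochondrial but not bacterial ribosomes, stood at 47.0, 50.4 and 50.3 TPM in SFPQ_KO and 55.9, 60.7 and 58.2 TPM in Cont. Its replicates were tight and did not overlap, with a log2 difference of −0.24 (SE 0.08, limma adjusted p = 0.325). Mrps17, whose bacterial homolog binds rRNA in the body of the small subunit, was at 65.5, 60.05 and 62.1 TPM against 67.0, 76.3 and 74.9 TPM, a log2 difference of −0.21. Here knockout replicate 1 and control replicate 1 nearly met. Mrps5, of the mRNA entry region, overlapped between the groups at 48.8 ± 7.62 and 58.3 ± 6.22 TPM. Mrps2 did not overlap but differed by little, 36.5 ± 2.32 against 40.6 ± 1.46 TPM.

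On the higher side, no small-subunit gene had separate groups. The 3 with the smallest p were Mrps7, a protein of the head, at 135 ± 16.0 in knockout and 128 ± 1.55 TPM in control, Mrps12, of the decoding centre, at 135 ± 11.8 and 130 ± 1.89 TPM, and Mrps22, a mitochondria-specific subunit, at 36.3 ± 1.83 and 35.2 ± 1.72 TPM. Their log2 differences were 0.06, 0.05 and 0.04, each within the spread of the replicates. Those of Mrps7 and Mrps12 changed sign under 1 alternative each, down to −0.02.

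In the large subunit, Mrpl33 stood highest above control. It encodes a small protein with a bacterial homolog (chromosome 5, 31613951 to 31622644, 8.69 kb). Its TPM was 215.5, 244 and 247 in SFPQ_KO replicates 1 to 3 and 174, 194 and 186 in Cont replicates 1 to 3. Each knockout library lay above each control library, the knockout mean was 27.6% above control, and the log2 difference was 0.35 (SE 0.09, limma adjusted p = 0.251). Of all genes tested, 95.1% had a lower log2 difference. Mrpl23, near the exit of the protein tunnel, was at 103 ± 6.74 against 89.5 ± 7.81 TPM, and Mrpl52, a mitochondria-specific subunit, at 128 ± 11.8 against 115 ± 2.63 TPM. Both had separate groups, with log2 differences of 0.20 and 0.15 and limma adjusted p of 0.453 and 0.534.

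Mrpl3 stood lowest in the large subunit. It is the homolog of a bacterial protein that reaches toward the catalytic centre (chromosome 9, 105053268 to 105077466, 24.2 kb). Its TPM was 47.6, 53.8 and 48.9 in SFPQ_KO replicates 1 to 3 and 58.3, 74.2 and 62.7 in Cont replicates 1 to 3. The groups did not overlap, and control replicate 2 was the highest. The log2 difference was −0.37 (SE 0.11, limma adjusted p = 0.306).

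Mrpl4, which lines the protein tunnel, was at 100.5, 105 and 94.9 TPM in SFPQ_KO and 128, 109.5 and 114 TPM in Cont, a log2 difference of −0.22 (limma adjusted p = 0.396). Mrpl47, of the tunnel exit, was at 31.1 ± 4.21 against 38.2 ± 3.28 TPM, a log2 difference of −0.29. Its exons share bases with Actl6a and Ndufb5 on the opposite strand, and no source used here says whether the authors' counting used strand. Mrpl18, whose bacterial homolog binds a small rRNA, had a difference of −0.21, Mrpl51, a mitochondria-specific subunit, −0.23 and Mrpl19 −0.24. All of these had separate groups, and over them the limma adjusted p ran from 0.396 to 0.453. Mrpl18 and Mrpl19 likewise share exon bases with a coding gene on the opposite strand, Tcp1 and Gcfc2.

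**Figure D2:**
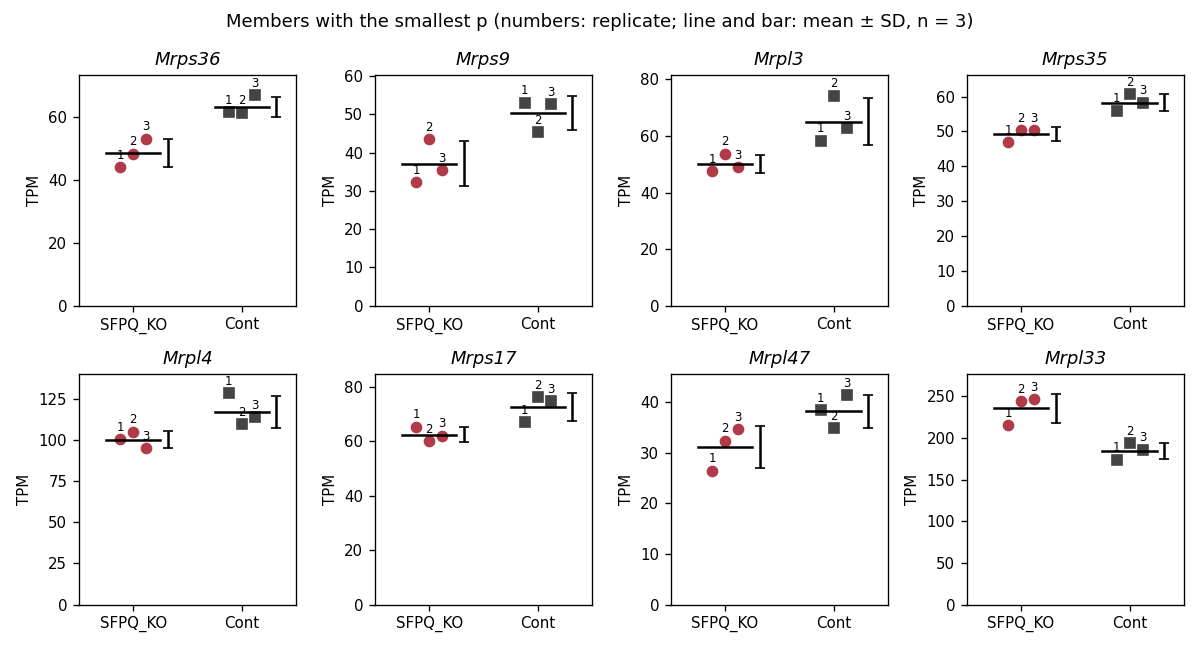
TPM in each library (vertical axis from 0) for the 7 lower members Mrps36, Mrps9, Mrpl3, Mrps35, Mrpl4, Mrps17 and Mrpl47 and for Mrpl33, with replicate numbers, group means and SD (n = 3). In the first 7 panels each SFPQ_KO library lies below each Cont library, and for Mrpl33 above, with knockout replicate 3 (34.6 TPM) and control replicate 2 (34.8 TPM) of Mrpl47 nearly level.

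Levels within the family spanned from 6.02 TPM for Mrps25 to 247 TPM for Mrpl12, as means over 6 libraries. TPM is scaled by transcript length, so levels of different genes can be set side by side. Of the 76 genes, 22 were at 100 TPM or more, 49 between 20 and 100 TPM and 5 below 20 TPM, although the finished ribosome holds nearly all of these proteins in equal number. Mrpl12, the stalk protein that recruits translation factors, had 237 ± 30.3 TPM in the SFPQ_KO libraries and 257 ± 9.46 TPM in the Cont libraries. The next in the large subunit were Mrpl53 at 219 TPM and Mrpl42 at 219 TPM, which did not differ from each other beyond their spread. In the small subunit Mrps21 led at 231 TPM, followed by Mrps23 at 151 TPM and Mrps34 at 138 TPM.

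The lowest of the large subunit were Mrpl19 at 12.2 TPM and Mrpl1, of the stalk where spent tRNA leaves, at 12.6 TPM. In the small subunit they were Mrps25 and Mrps22, at 35.8 TPM. The log2 differences of these 10 high and low genes ran from −0.26 (Mrps25) to 0.11 (Mrpl53), and those of Mrpl53 and Mrps34 changed sign in 1 and 3 alternatives. Some of these levels may be shared with neighbours. Exons of Mrpl53 overlap Gm42688 on the same strand over 88.0% of their bases, those of Mrps34 overlap Mapk8ip3 and Nme3, and those of Mrps25 overlap Nr2c2 on the opposite strand over 69.8%. In all, 22 of 76 members share exon bases with another coding gene, 19 with one on the opposite strand and 4 with one on the same strand.

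Summed over genes on the deposited TPM scale, the large subunit was close between genotypes and the small subunit stood lower in knockout, a separation that was lost under another scaling. The 47 Mrpl genes summed to 3971, 4203 and 4280 TPM in SFPQ_KO replicates 1 to 3 and to 4322, 4125 and 4299 TPM in Cont replicates 1 to 3. The groups overlap, with a knockout mean at 97.7% of control. The 29 Mrps genes summed to 2122, 2219 and 2231 TPM in SFPQ_KO and to 2358, 2273 and 2367 TPM in Cont. These groups do not overlap, and the knockout mean was 93.9% of control. After median-of-ratios scaling, an alternative for the sums that was chosen after seeing the data, the Mrps sums were 2149.5, 2270.1 and 2322 in SFPQ_KO and 2407, 2130.1 and 2287 in Cont. On that scale the groups overlap and the knockout mean was 98.8% of control, and for the Mrpl genes 102.8%. All members together held 0.634% ± 0.0220 of TPM in knockout and 0.658% ± 0.0159 in control (SD, n = 3).

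Scaling each library by a single factor leaves the ratio of large to small subunit TPM unchanged, which quantile normalization need not do. This ratio was 1.87, 1.89 and 1.92 in SFPQ_KO replicates 1 to 3 and 1.83, 1.81 and 1.82 in Cont replicates 1 to 3. Each knockout library was above each control library, by a mean of 1.89 ± 0.0239 against 1.82 ± 0.0103 (SD, n = 3), a description without a test since the members were chosen with results of these data known. Without Mrpl33 the ratio was 1.77 to 1.81 in knockout and 1.73 to 1.76 in control, and without Mrpl33 and Mrps36 the lowest knockout library (1.807) and the highest control library (1.806) were level. With Mrps18a and Mrps30 placed in the large subunit, where structures show them, and Mrps36 left out, it was 2.15 to 2.22 against 2.08 to 2.13. That ratio still includes Mrpl33 and was not computed without it, so it shows no separation apart from that gene. In the mean of log2(TPM + 1) over genes, Mrpl stood above Mrps by 0.095 to 0.116 in SFPQ_KO and by 0.043 to 0.075 in Cont. That mean includes Mrpl33 and Mrps36 and was not tested. In the median of the log2 differences the 2 subunits were close: the Mrpl median was 0.031 above the Mrps median, 0.00087 above it without control replicate 2 and below it, at −0.011, without knockout replicate 2.

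**Figure D3:**
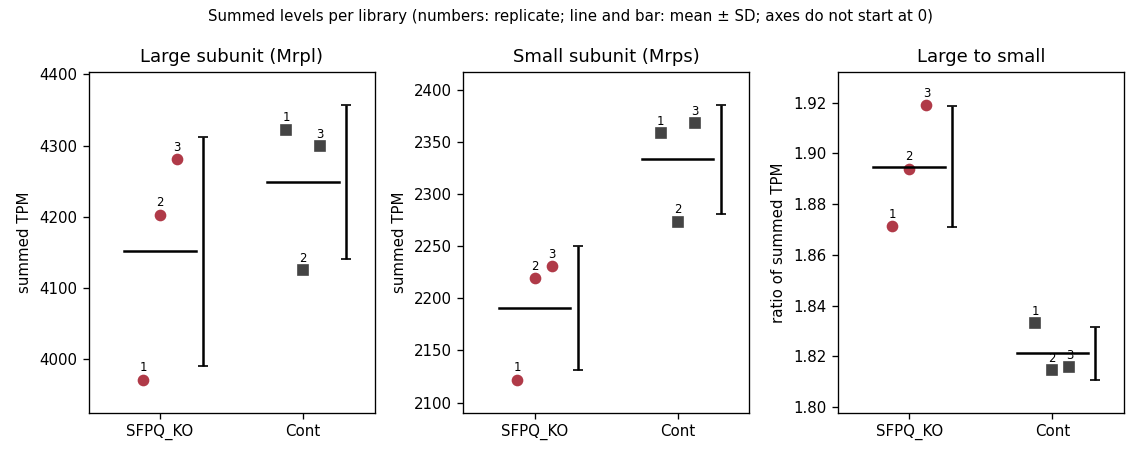
Summed TPM of the 47 Mrpl genes (left), of the 29 Mrps genes (middle) and their ratio (right) in each library, with replicate numbers, means and SD (n = 3) on axes that do not start at 0. On this scale the large-subunit sums of SFPQ_KO and Cont overlap and the small-subunit sums do not, unlike after median-of-ratios scaling, and the ratio lies between 1.87 and 1.92 in SFPQ_KO and between 1.81 and 1.83 in Cont.

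Members were also grouped by origin, in the subunit where structures place them. The 29 large-subunit proteins with a bacterial homolog had a median log2 difference of −0.11, with 23 values lower, and the 20 mitochondria-specific ones −0.03, with 12 lower. In the small subunit the 16 with a bacterial homolog had a median of −0.10 and the 10 mitochondria-specific ones −0.07. Separate groups in the lower direction were found for 7 of 29, 2 of 20, 3 of 16 and 1 of 10 in that order, where all genes tested gave 15.3%. No test was made between these groups of genes.

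Most members are short genes. Their median genomic span was 7.61 kb, against 21.7 kb over all tested genes with a span, and 1 of 76 (Mrps28, 122 kb) reached 100 kb, against 11.8%. Mrps28 overlapped between the groups, with 66.95 ± 2.07 TPM in SFPQ_KO against 69.7 ± 1.64 TPM in Cont. The 53 members under 10 kb had a median difference of −0.06, the 17 of 10 to 30 kb −0.13 and the 6 of 30 kb or more −0.11. Across the 76 genes the difference and log2 span had Pearson r = −0.27 and Spearman rho = −0.25. The difference and log2 mean TPM had Pearson r = 0.31 and Spearman rho = 0.26, so span was not alone in this. Both describe genes that share the same 6 libraries and are not independent, and neither is given here over all genes tested.

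The libraries of 1 genotype were not alike for these genes. Knockout replicate 1 was the lowest of its group for 41 of 76 members (53.9%), against 29.0% of all genes tested, and control replicate 2 was the lowest of its group for 40 (52.6%), against 29.2%. In the same 2 libraries the cytosolic ribosomal protein genes summed highest, at 86212 and 86009 TPM, against 70804 to 81309 TPM in the other 4. The summed TPM of cytosolic to mitochondrial ribosomal proteins was 14.1 and 13.4 in these 2 libraries and 10.6 to 12.7 in the others. The Mrpl and Mrps medians were −0.05 and −0.07 when knockout replicate 1 was left out. They were −0.08 and −0.08 when control replicate 2 was left out.

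**Figure D4:**
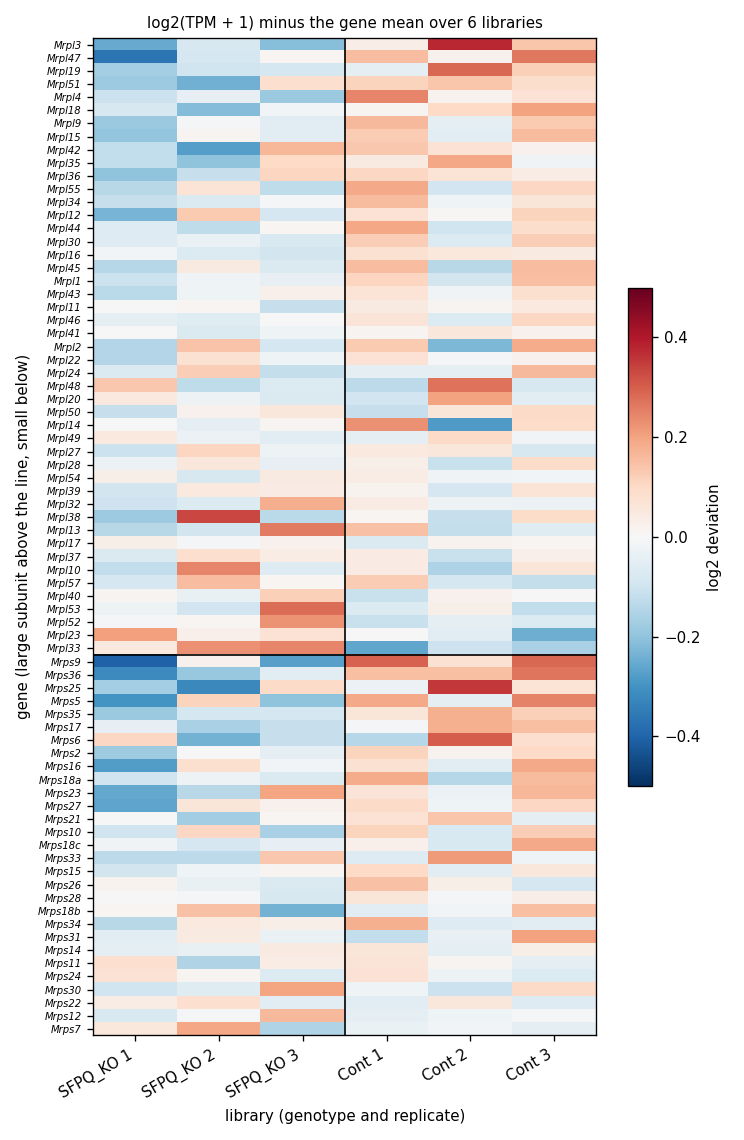
Deviation of log2(TPM + 1) from each gene's mean over 6 libraries (colour, blue lower and red higher, from −0.5 to 0.5) for the 47 Mrpl genes above the line and the 29 Mrps genes below it. Columns are libraries, and SFPQ_KO replicate 1 is mostly blue, being the lowest of its group for 41 of 76 genes.

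Mitochondrial ribosomal proteins that carry other names gave no call either. Dap3, Chchd1 and Aurkaip1 of the small subunit overlapped between the groups, with log2 differences of −0.01, −0.12 and −0.11, and that of Dap3 changed sign in 4 alternatives, up to 0.06. Ptcd3, an RNA-binding repeat protein of the small subunit, had 51.7 ± 3.90 TPM in SFPQ_KO against 63.3 ± 5.75 TPM in Cont. Its groups did not overlap, at a log2 difference of −0.28 and a limma adjusted p of 0.347. Gadd45gip1, of the large subunit, also had separate groups, at a difference of −0.16.

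The factors that work with the mitochondrial ribosome showed a few wider differences. Of 16 listed translation factors 14 were tested, of which 13 lay below control, at a list median of −0.13. For 3 of the 14 (21.4%) each knockout library lay below each control library, against 15.3% of all genes tested, and 0 passed. Gfm1, the elongation factor that moves the ribosome along its mRNA, was at 54.7, 55.3 and 56.2 TPM in SFPQ_KO replicates 1 to 3 and 74.0, 73.6 and 81.8 TPM in Cont replicates 1 to 3. Its replicates were tight and far apart between genotypes, with a log2 difference of −0.46 (SE 0.08, limma adjusted p = 0.137). Mtif2, the initiation factor that brings the first tRNA, was at 19.9 ± 0.740 against 23.9 ± 1.10 TPM, and Guf1, a GTPase related to the bacterial factor LepA, at 3.98 ± 0.405 against 5.05 ± 0.305 TPM. Mtfmt, which formylates the initiator tRNA, overlapped between the groups (7.29 ± 0.755 and 8.49 ± 0.738 TPM).

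All 29 listed factors for ribosome assembly and mitochondrial RNA were tested, 22 of them below control, at a list median of −0.09. Groups were separate for 6 lower and 1 higher (20.7% and 3.45%, against 15.3% and 4.27%), and 0 passed over all genes. Lrpprc, which stabilises mitochondrial mRNAs, was at 29.5, 35.5 and 33.1 TPM in SFPQ_KO and 40.2, 47.4 and 44.9 TPM in Cont (log2 difference −0.42, SE 0.11, limma adjusted p = 0.242). Tfb1m, which methylates the small rRNA, was at 11.1, 10.2 and 10.3 TPM in SFPQ_KO and 17.3, 12.4 and 15.3 TPM in Cont, a log2 difference of −0.46. Mettl15, another methyltransferase for that rRNA whose gene spans 189 kb, had 4.68 ± 0.219 TPM in SFPQ_KO and 7.45 ± 1.70 TPM in Cont, a difference of −0.55. Mterf4, which helps to assemble the large subunit, lay on the other side, at 28.8 ± 0.900 in knockout against 23.6 ± 1.40 TPM in control (0.28). Over these 4 the limma adjusted p ran from 0.242 to 0.310.

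The nuclear genes of respiratory complexes I to V stood further below control. The mitochondrial ribosome makes partner subunits for each of these complexes except complex II. Of 82 tested, chosen by symbol, 77 lay below control, and the list median was −0.22, where that of the 76 ribosomal protein genes was −0.07. Groups were separate in the lower direction for 32 of 82 (39.0%) and for 14 of 76 (18.4%), where all genes tested gave 15.3%. The summed TPM of the respiratory genes was 6.84, 6.77 and 7.54 times that of the mitochondrial ribosomal proteins in SFPQ_KO replicates 1 to 3 and 8.08, 7.63 and 8.04 times in Cont replicates 1 to 3. The ratio was lower in each knockout library than in each control library, a description without a test. The respiratory sums themselves overlapped, at 41653 to 49079 TPM in SFPQ_KO and 48814 to 54010 TPM in Cont. After median-of-ratios scaling the respiratory median was −0.15. The cytosolic ribosomal proteins lay on the other side, with 63 of 82 values higher and a median of 0.07. Their groups were separate in the higher direction for 7 of 82 (8.54%), against 4.27% of all genes tested. Their sums overlapped, at 81299 to 86212 TPM in SFPQ_KO and 70804 to 86009 TPM in Cont.

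**Figure D5:**
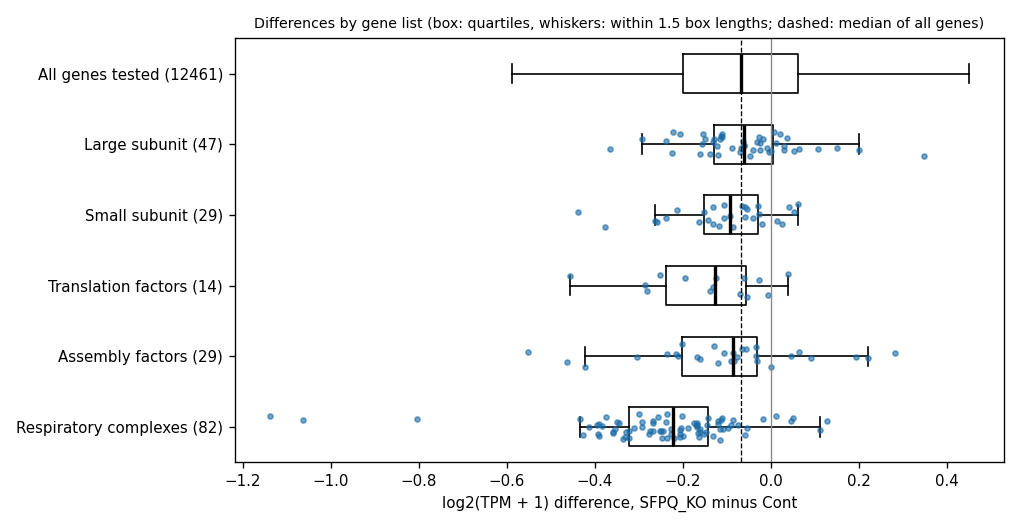
Log2 difference, SFPQ_KO minus Cont, for all genes tested and for 5 gene lists (number of genes in brackets), with each gene as a point, quartile boxes and medians as thick lines. The boxes of both ribosome subunits lie around the dashed median of all genes, while that of the respiratory complexes (median −0.22) lies to its left.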

How the data were processed

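TPM, as deposited by the authors, is given once per RefSeq transcript accession and library. Reads were aligned with STAR 2.4.1d to mm10, per the submitters' processing notes, whereas the counting tool, annotation and strand setting were left unnamed, not given in the sources used here. All 34475 deposited values of 20 TPM or more lie on a grid of log2(TPM + 1) with 4 decimals, a precision far below the spread of replicates. Of 34671 accessions, 30822 were named through a RefSeq table of GRCm38.p6 and 103 through GENCODE vM21, and 3746 (1.19% to 1.27% of TPM) kept their accession as name. TPM was summed per symbol, and each member had 1 accession.

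The test was limma 3.58.1 (R 4.3.3), run on log2(TPM + 1) for genes that reached 1 TPM in 3 or more libraries (intensity trend, no block, 2-sided, Benjamini-Hochberg adjusted p under 0.05), after a check on simulated data. Fold changes on this scale understate those of low genes. Tables were joined in pandas 2.3.3 under Python 3.11.15, and plots drawn in matplotlib 3.10.9. Spans and coordinates are from RefSeq and exon overlaps from GENCODE.

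Members and lists were chosen with earlier results of these data known. Genes named are, per subunit, the 6 lower and 3 higher with the smallest p, the 3 highest and 2 lowest in level, the 4 smallest p of each factor list and the 5 proteins with other names. Mrps28, the genes of the 2-oxoglutarate dehydrogenase complex and the comparison lists of respiratory and cytosolic ribosomal genes were added after values were seen. Alternatives covered the pseudocount (0.1 and 5), filter, scaling, coding accessions alone, moderation, a replicate block, subunit by structure and each library left out.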

Additional observations from a re-analysis of the deposited data

How the results depend on the processing

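Over 17 alternatives, 0 of 76 members passed limma's test. The count of all genes lower and higher in knockout, 0 and 0, became 11 and 2 with a pseudocount of 5, 6 and 1 with a mean TPM of at least 5, and 1 and 1 without limma's trend. No member was among them. The median log2 difference of the Mrpl genes (−0.061) was 0.013 after median-of-ratios scaling and −0.011 after quantile normalization, and that of the Mrps genes (−0.092) was −0.019 and −0.065. Leaving out 1 library, the Mrpl median ran from −0.086 to −0.055, the Mrps median from −0.097 to −0.072 and their difference from −0.011 to 0.030. The labels do not say whether replicate numbers pair the samples. Deviations of same-numbered libraries correlated at −0.26, −0.25 and 0.05 over 12461 genes, and knockout replicate 1 correlated best with control replicate 2 (0.41). The deviations are taken from each group's own mean, so these correlations are tied to one another and cannot decide whether the numbers pair mice. With a replicate block the counts stayed 0 and 0, and the Mrpl and Mrps medians −0.061 and −0.092, their difference 0.031, by construction. At an unadjusted p under 0.05 the block left 835 lower and 224 higher genes in place of 1199 and 334.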
